A study of Mus musculus with 24 samples.

Results

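The genes described here are 36 genes of the peroxisome: enzymes that oxidise fatty acids inside it, the thioesterases, carnitine transferase and transporters that move acyl groups in and out, enzymes that prepare branched fatty acids, hydrogen peroxide-producing oxidases with catalase, and peroxins, which build the organelle. They were taken by name from a fixed list of peroxisomal oxidation, transport, oxidase and biogenesis genes, out of 22911 gene symbols on the array. The list was chosen with earlier results of these data known, so its patterns are no independent support. All 36 were on the array and 35 were tested, beside 17736 genes tested in all. Abcd2, a transporter of very long fatty acyl-CoAs, was well above background on 0 of 24 arrays and was not tested.

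Kidney RNA came from male Crl:CD1(ICR) mice, an outbred stock, with 1 Agilent single-colour array per mouse. In the DKD+enarodustat group (n = 9), mice received an intravenous dose of 90 mg/kg alloxan, a toxin of insulin-producing cells, 3 days before grouping and then feed with 0.01% enarodustat by weight. Enarodustat blocks prolyl hydroxylase enzymes, which otherwise tag the transcription factor HIF (hypoxia-inducible factor) for destruction. In the DKD group (n = 9), named for diabetic kidney disease, mice received the same alloxan dose and normal feed, and both alloxan groups had been matched for blood glucose and body weight. In the Sham group (n = 6), mice received vehicle in place of alloxan and normal feed, and all kidneys were taken 16 days after grouping. No Sham mice were given enarodustat, so the drug was measured in diabetic kidneys only. The labels give no age and no glucose value per mouse, and the design describes an early, chemically induced model.

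Peroxisomes shorten very long, branched and dicarboxylic fatty acids by beta-oxidation and pass the shortened products to mitochondria. Their first oxidation step gives electrons directly to oxygen and makes hydrogen peroxide, which catalase removes. In rodents many of these enzymes are under the control of the fatty acid receptor PPAR alpha, and the proximal tubule is the part of the kidney richest in peroxisomes. Peroxins import finished enzymes from the cytosol and insert the membrane proteins of the organelle.

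Each level below is a log2 signal relative to the 75th percentile of its array, so levels of different genes, read by different probes, were not set against each other. Differences are log2 values ± SE from 1 limma fit of all 24 arrays, and "rose" and "fell" are used for genes with p under 0.05 after Benjamini-Hochberg adjustment over the 17736 genes. The 75th percentile lay at signals of 187 to 388, between 63.6% and 75.4% of spots were well above background, and arrays of the same group correlated at 0.964 to 0.991 across genes. The arrays filled 3 slides, each with 3 DKD+enarodustat, 3 DKD and 2 Sham arrays. All DKD+enarodustat arrays sat in slide row 2 and all Sham arrays in row 1, while DKD arrays used both rows (3 in row 2 and 6 in row 1). The tissue label was checked on markers: the proximal tubule markers Slc34a1, Lrp2 and Slc5a2 were well above background on all 24 arrays, whereas 2 of 4 fat markers (Adipoq and Plin1) and 2 of 3 of adrenal cortex (Cyp11b1 and Cyp11a1) were too dim to be tested. The fat markers Cidec and Lep did not pass in any comparison. Star, of adrenal cortex, lay between −4.20 and −2.88 in DKD+enarodustat kidneys, −4.12 and −2.89 in DKD kidneys and −4.90 and −3.63 in Sham kidneys, and it rose in DKD+enarodustat against Sham (0.75, adjusted p = 0.0356).

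The first comparison asked which peroxisomal RNAs differed in the diabetic kidney. Of the 35 genes tested, 5 rose and 5 fell in DKD kidneys against Sham kidneys and 25 did not pass, where 11.6% of all genes tested passed (5.47% higher and 6.13% lower). The thioesterase Acot3 rose most, by 2.03 ± 0.48 (4.09-fold), followed by the 2-hydroxyacyl-CoA lyase Hacl1 (1.05 ± 0.32) and the 2-hydroxy acid oxidase Hao2 (0.98 ± 0.24). The thiolase Acaa1b (0.50 ± 0.14) and the pipecolic acid oxidase Pipox (0.27 ± 0.09) rose less. The racemase Amacr fell most, by 0.88 ± 0.16 on the log2 scale, and the enoyl-CoA reductase Pecr, the peroxin Pex3, the lipid carrier and thiolase Scp2 and catalase (Cat) fell by 0.41, 0.40, 0.31 and 0.28. The median difference over the 35 genes was −0.01, and over all genes tested it was also −0.01. With slide row in the model these medians were −0.10 and −0.03, and under quantile normalization 0.03 and −0.01. In none of the 35 did DKD and Sham arrays separate without overlap (0 genes, where 3.4% of all genes did). A fall or rise in whole kidney RNA cannot be told apart from a change in the number of cells that make the RNA.

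**Figure D1:**
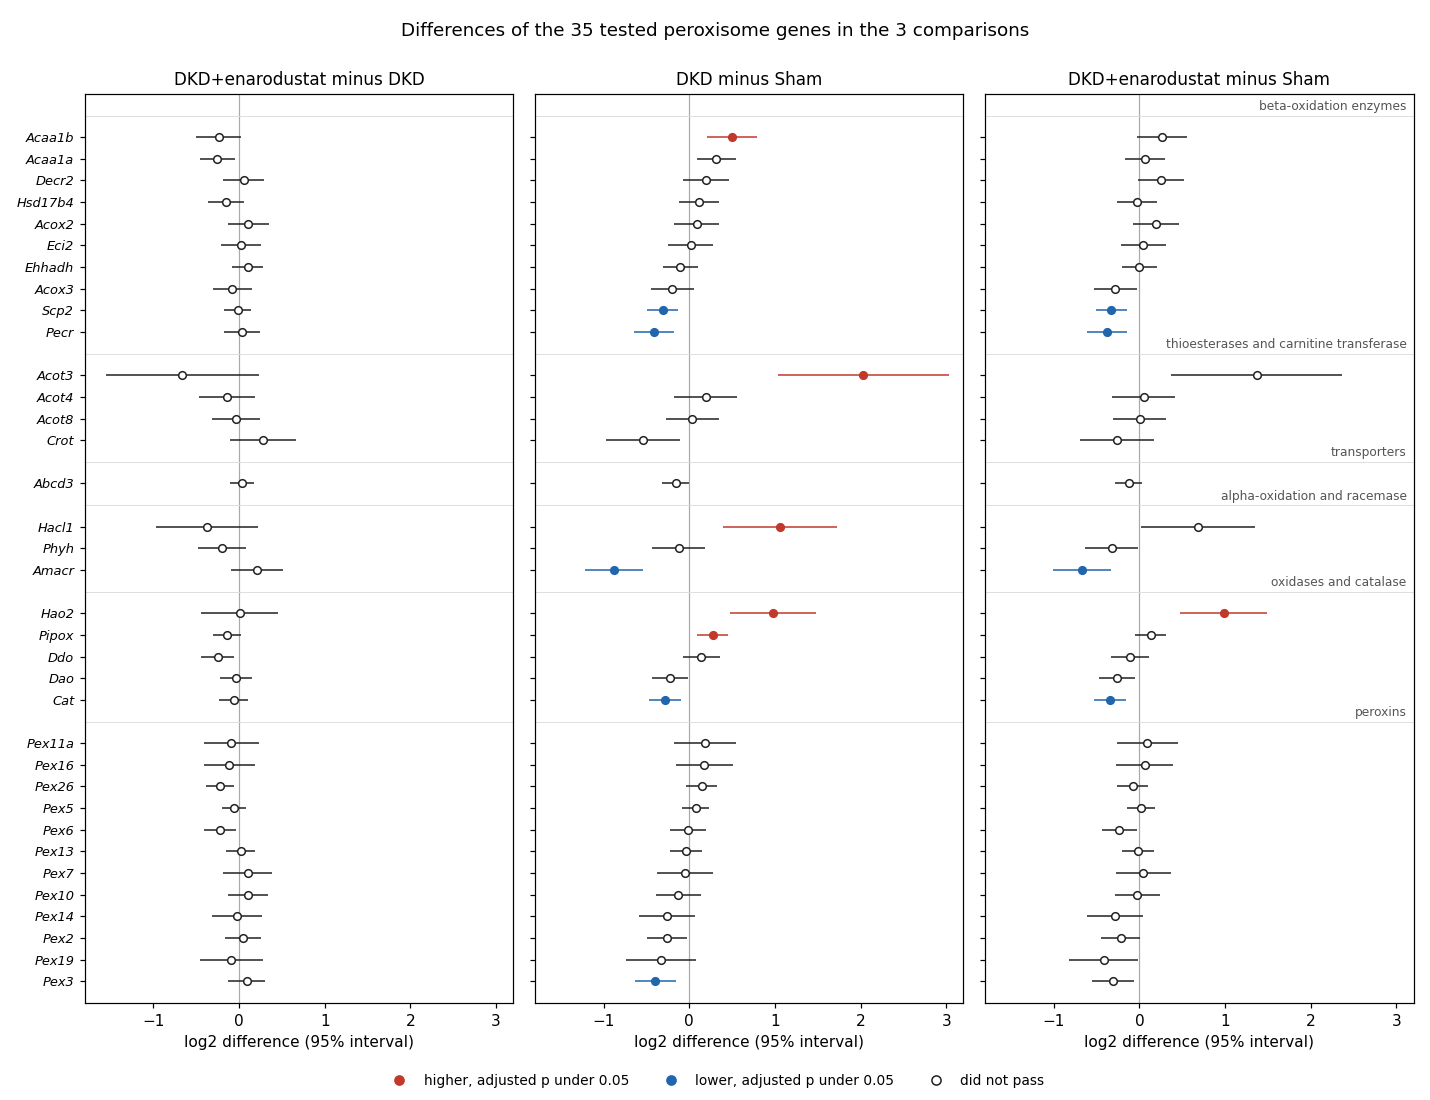
Log2 differences of the 35 tested peroxisome genes (points, with 95% intervals as bars), grouped by role, for DKD+enarodustat minus DKD (left), DKD minus Sham (middle) and DKD+enarodustat minus Sham (right). Filled points passed an adjusted p under 0.05: 5 red and 5 blue points between DKD and Sham, 0 between DKD+enarodustat and DKD, and 1 red and 4 blue between DKD+enarodustat and Sham.

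Promoter sequences (250 bases before to 50 after the transcription start, GRCm38.p6, from RefSeq) were found for 31 of the 36 genes, as 39 promoters. They were searched on both strands for the direct repeat AGGTCANAGGTCA, the type bound by PPAR alpha with its partner RXR, for the looser form AGGNCANAGGNCA, and for the core letters of HIF sites in both forms, ACGTG and, with another first base, GCGTG. Matches of the same core form on opposite strands can overlap, as those of ACGTG do in CACGTG. The exact repeat was in 0 of the 39 and in 0.0396% of all 32851 promoters in the table, and the looser form in 0 and in 0.381%. At least 1 core form was in 17 of the 39 (43.6%) and in 43.8% of all promoters. Shown are the promoters of the 3 genes that rose most and of Pecr and Pex3, which fell. No promoter was found for Amacr, which fell most. They lie at chr12:84051894-84052193 on the plus strand for Acot3 (the first of its 2 listed starts), and on the minus strand at chr14:31640916-31641215 for Hacl1, chr3:98893181-98893480 for Hao2, chr1:72284272-72284571 for Pecr and chr10:13553093-13553392 for Pex3. Capitals mark a core form on either strand. Hacl1, Pecr and Pex3 hold such letters in this window, and Acot3 and Hao2 do not. Of the passing genes not shown, Scp2, which fell, holds them. Cat, which fell, and Acaa1b and Pipox, which rose, do not. A link between these letters and direction was not tested.
Acot3: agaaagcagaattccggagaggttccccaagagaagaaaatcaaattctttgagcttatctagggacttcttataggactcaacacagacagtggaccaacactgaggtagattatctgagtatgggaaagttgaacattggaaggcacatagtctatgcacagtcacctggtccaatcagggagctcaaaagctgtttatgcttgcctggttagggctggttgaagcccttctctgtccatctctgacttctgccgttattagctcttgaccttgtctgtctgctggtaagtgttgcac
Hacl1: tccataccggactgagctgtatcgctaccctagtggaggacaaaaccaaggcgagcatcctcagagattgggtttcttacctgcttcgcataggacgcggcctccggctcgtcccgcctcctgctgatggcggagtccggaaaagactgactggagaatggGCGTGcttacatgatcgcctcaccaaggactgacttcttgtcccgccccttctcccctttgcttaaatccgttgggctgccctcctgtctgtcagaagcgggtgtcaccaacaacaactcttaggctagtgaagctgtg
Hao2: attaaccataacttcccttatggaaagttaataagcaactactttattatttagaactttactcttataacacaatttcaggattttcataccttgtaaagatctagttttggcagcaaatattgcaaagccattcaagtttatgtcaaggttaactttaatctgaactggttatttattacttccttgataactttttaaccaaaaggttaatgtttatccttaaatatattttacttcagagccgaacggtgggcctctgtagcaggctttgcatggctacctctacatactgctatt
Pecr: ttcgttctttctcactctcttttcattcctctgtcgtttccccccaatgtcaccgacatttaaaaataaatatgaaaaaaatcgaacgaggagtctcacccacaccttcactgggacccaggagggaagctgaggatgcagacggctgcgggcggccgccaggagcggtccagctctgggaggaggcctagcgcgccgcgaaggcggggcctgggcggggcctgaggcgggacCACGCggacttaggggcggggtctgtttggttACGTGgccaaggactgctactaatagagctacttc
Pex3: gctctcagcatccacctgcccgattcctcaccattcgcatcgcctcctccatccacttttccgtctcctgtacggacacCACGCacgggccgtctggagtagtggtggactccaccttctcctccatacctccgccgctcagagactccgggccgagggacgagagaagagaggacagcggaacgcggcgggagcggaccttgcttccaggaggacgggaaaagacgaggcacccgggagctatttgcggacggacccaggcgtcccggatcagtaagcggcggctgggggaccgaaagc

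Among the 10 genes grouped here under beta-oxidation, 1 rose, 2 fell and 7 did not pass in DKD against Sham. The group counts Pecr, which fell and is a reductase rather than an oxidising enzyme. Of all genes tested 11.6% passed. Acaa1b, a thiolase that releases acetyl-CoA in the last step, lay between 4.16 and 4.82 in DKD kidneys (median 4.38) and between 3.69 and 4.18 in Sham kidneys (median 3.96). All but 1 of the 9 DKD arrays exceeded every Sham array (adjusted p = 0.0227). Its near-identical neighbour in the family, Acaa1a, lay between 5.84 and 6.58 in DKD kidneys (median 6.37) and between 5.83 and 6.20 in Sham kidneys (median 5.98), a difference of 0.32 ± 0.11 that did not pass (adjusted p = 0.0669). Cross-hybridisation between these paralogs, or among Acot3, Acot4 and Acot5, was not checked, since no probe sequences were used here.

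Pecr, which reduces 2-enoyl-CoAs, lay between 6.55 and 6.95 in DKD kidneys (median 6.69) and between 6.77 and 7.38 in Sham kidneys (median 7.19; adjusted p = 0.0176). Every DKD array was below the Sham mean, and 6 of 9 were below every Sham array. Scp2, whose gene encodes the thiolase for branched acyl-CoAs and a lipid carrier, lay between 6.18 and 6.74 in DKD kidneys (median 6.38) and between 6.55 and 6.77 in Sham kidneys (median 6.75; adjusted p = 0.0203). For Scp2, DKD replicate 4 alone reached the Sham levels, and the other 8 DKD arrays were below every Sham array.

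Acox2, the oxidase of bile acid side chains and branched acyl-CoAs, did not pass: it lay between 3.88 and 4.74 in DKD kidneys (median 4.13) and between 3.84 and 4.39 in Sham kidneys (median 4.12). Its difference was 0.09 (95% interval −0.18 to 0.35). Ehhadh, the bifunctional enzyme of the middle steps for dicarboxylic acids, lay between 4.14 and 4.92 in DKD kidneys (median 4.53) and between 4.41 and 4.77 in Sham kidneys (median 4.60), a difference of −0.10 (95% interval −0.31 to 0.10). For Acox2, 2 DKD arrays exceeded the Sham range and the others lay in it, while for Ehhadh 1 lay above it and 3 below. The other beta-oxidation genes that did not pass were Hsd17b4 (0.12), the second bifunctional enzyme, Decr2 (0.19) and Eci2 (0.02), which handle double bonds, and Acox3 (−0.20), another branched-chain oxidase. Probes of Acox3 disagreed in sign (−0.20 for the brightest, −0.45 and 0.33 for the others), and the values of the 2 probes of Acox2 and of Eci2 straddled 0.

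Of the 3 thioesterases and the carnitine transferase, 1 rose and 3 did not pass, where 11.6% of all genes tested passed. Acot3, which frees long fatty acids from CoA in the peroxisome, lay between −0.06 and 3.37 in DKD kidneys (median 2.36) and between −0.38 and 0.64 in Sham kidneys (median 0.02). DKD replicate 4 lay within the Sham range and the other 8 DKD arrays above it (adjusted p = 0.00718). Acot4, which hydrolyses succinyl-CoA, differed by 0.19 and Acot8, a thioesterase of broad specificity, by 0.04, neither passing. Crot, which transfers shortened acyl groups to carnitine for export, differed by −0.54 ± 0.21 without passing (adjusted p = 0.0988), with 6 of 9 DKD arrays below every Sham array. The ABC transporter Abcd3, which imports branched and dicarboxylic acyl groups, differed by −0.16 (adjusted p = 0.198).

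In alpha-oxidation, Phyh hydroxylates phytanoyl-CoA and Hacl1 then cleaves off the carboxyl carbon, and Amacr turns the resulting methyl-branched acyl-CoAs into the mirror form that beta-oxidation accepts. Hacl1 rose and Amacr fell, whereas Phyh differed by −0.12 without passing (adjusted p = 0.674). Hacl1 lay between 1.85 and 4.77 in DKD kidneys (median 2.75) and between 1.87 and 2.18 in Sham kidneys (median 1.98; adjusted p = 0.0339). DKD replicate 5 was the lowest of all these arrays and the other 8 DKD arrays lay above every Sham array, DKD replicate 2 being the highest. Amacr lay between 5.60 and 6.92 in DKD kidneys (median 6.01) and between 6.78 and 7.23 in Sham kidneys (median 6.94; adjusted p = 0.00116). Only DKD replicate 4 entered the Sham range of Amacr.

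Of the 5 oxidases and catalase, 2 rose, 1 fell and 2 did not pass, where 11.6% of all genes tested passed. Hao2, which oxidises 2-hydroxy acids and makes hydrogen peroxide, lay between 4.54 and 5.76 in DKD kidneys (median 4.98) and between 3.59 and 4.74 in Sham kidneys (median 3.97; adjusted p = 0.0103). Again 8 of 9 DKD arrays were above every Sham array, and DKD replicate 4 was the exception. Pipox, which oxidises pipecolic acid and sarcosine, lay between 5.60 and 6.05 in DKD kidneys (median 5.80) and between 5.22 and 5.73 in Sham kidneys (median 5.55; adjusted p = 0.0438). Cat, which breaks down hydrogen peroxide, lay between 3.80 and 4.26 in DKD kidneys (median 3.90) and between 4.08 and 4.38 in Sham kidneys (median 4.22; adjusted p = 0.0467). DKD replicate 3 was the highest DKD array for Cat, and the other 8 were below every Sham array. Dao, the D-amino acid oxidase, differed by −0.22 and Ddo, the D-aspartate oxidase, by 0.14 (−0.11 at its other probe), and neither passed.

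**Figure D2:**
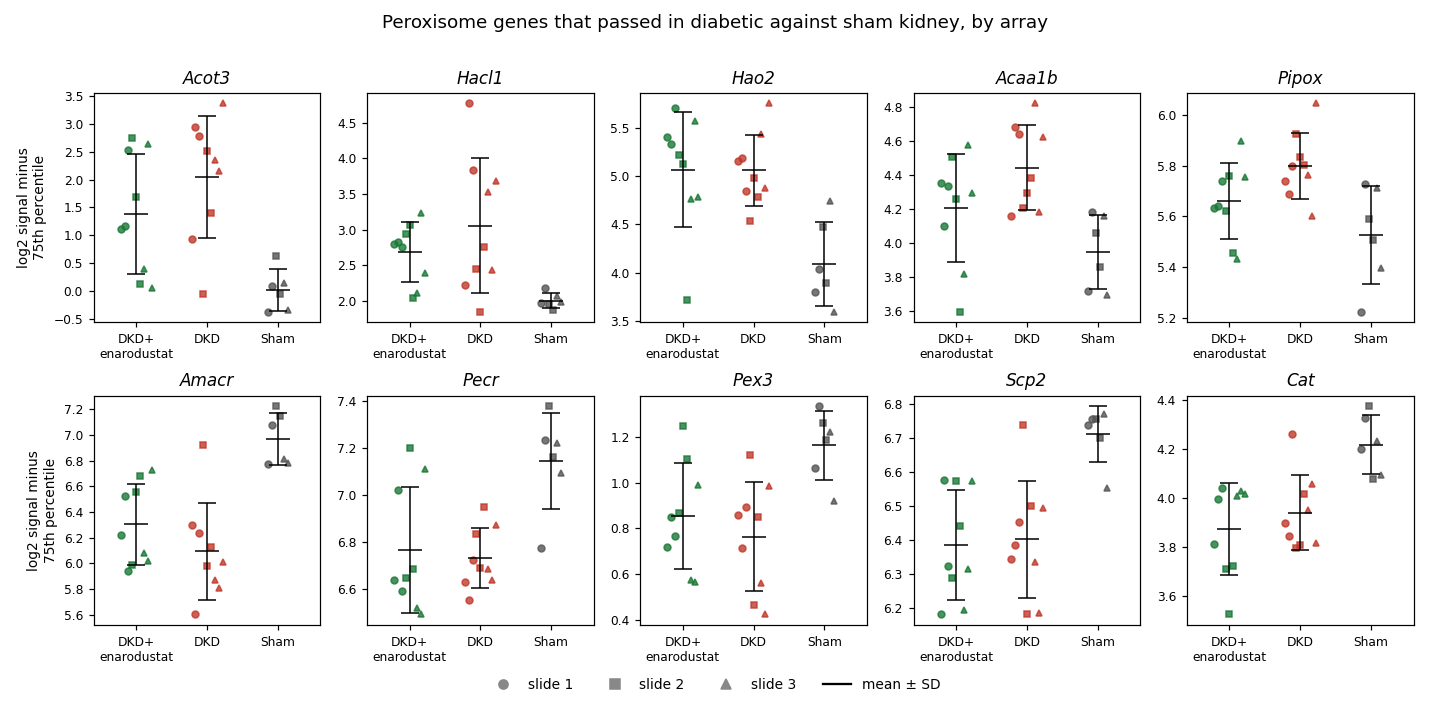
Level of each of the 10 peroxisome genes that passed between DKD and Sham, as log2 signal relative to the array's 75th percentile, in each DKD+enarodustat (green, n = 9), DKD (red, n = 9) and Sham (grey, n = 6) kidney, with mean ± SD as bars and the slide as the symbol. The upper row holds genes that rose and the lower row genes that fell, and the ranges of DKD and Sham arrays overlap in every panel. Vertical axes do not start at 0 and differ between panels.

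Of the 12 peroxins, 1 fell and 11 did not pass, where 11.6% of all genes tested passed. Pex3, which with Pex16 and Pex19 inserts proteins into the peroxisomal membrane, lay between 0.42 and 1.12 in DKD kidneys (median 0.85) and between 0.92 and 1.33 in Sham kidneys (median 1.20; adjusted p = 0.0263). Its other probe gave the same value, −0.40. Its partners Pex19 (−0.33) and Pex16 (0.18) did not pass and differed in sign. Pex5, the receptor that carries most enzymes into the organelle, lay between 1.33 and 1.89 in DKD kidneys (median 1.57) and between 1.36 and 1.67 in Sham kidneys (median 1.46). The Pex5 difference of 0.07 (95% interval −0.09 to 0.24) did not pass, and only DKD replicates 3 and 1 lay outside the Sham range. The second import receptor Pex7 (−0.05), the docking proteins Pex13 (−0.04) and Pex14 (−0.26) and the ubiquitin ligases Pex2 (−0.26) and Pex10 (−0.13) did not pass. Neither did the receptor export protein Pex6 (−0.01, with 0.24 at its other probe), its anchor Pex26 (0.15) and the division factor Pex11a (0.18).

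Within slides 1, 2 and 3 taken alone, each of the 10 genes that passed kept its sign. These genes were picked for passing on the same arrays, so this agreement is no independent support. Acot3 differed by 2.37, 0.99 and 2.73, Hacl1 by 1.54, 0.44 and 1.18, and Hao2 by 1.15, 0.59 and 1.19, so that slide 2 gave the smallest difference for all 3 genes. Amacr differed by −0.88, −0.84 and −0.90 and Pex3 by −0.37, −0.41 and −0.41. The 3 slides held 3 DKD and 2 Sham arrays each, and within 1 slide alone 0 of the 35 genes passed by limma in either direction. Of all 17736 genes tested, 15, 0 and 9 passed within slides 1, 2 and 3 alone.

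**Figure D3:**
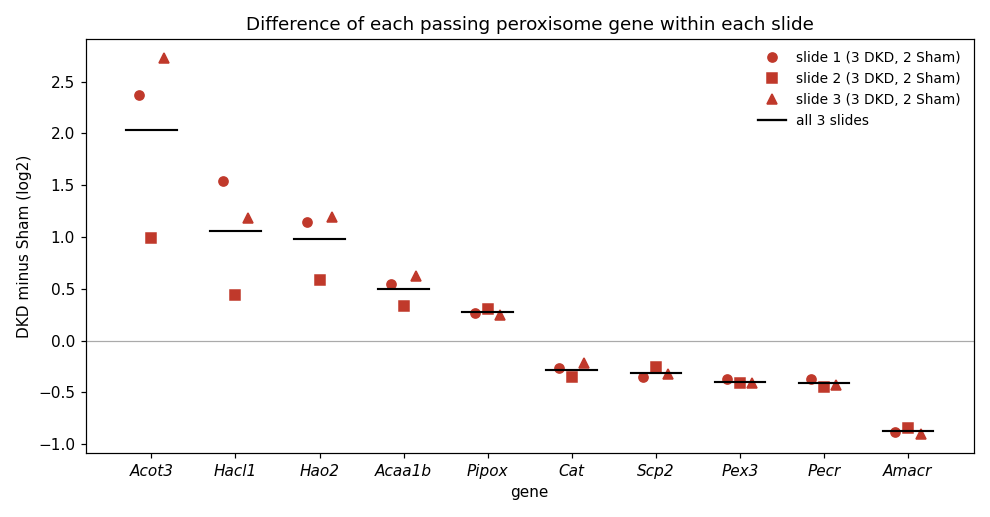
DKD minus Sham difference (log2) of each of the 10 genes that passed, within slide 1 (circles), slide 2 (squares) and slide 3 (triangles), with the difference over all slides as a line. All 3 slides show the same sign for each gene, and slide 2 is lowest for Acot3, Hacl1, Hao2 and Acaa1b. The genes were picked for passing on these same arrays.

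The calls of Acot3, Amacr, Hao2 and Scp2 held when any 1 of the 24 arrays was left out, and the other 6 did not all hold. Cat no longer passed when Sham 1, 2, 3 or 5, DKD 1, 2, 4, 5, 7 or 9, or DKD+enarodustat 1, 2 or 8 was removed (adjusted p up to 0.121), or under quantile normalization, where it differed by −0.18 (adjusted p = 0.400). For Pipox the same held for any 1 of 14 arrays (Sham 1, 3, 4 or 6, DKD 1, 3, 4, 5, 6, 7 or 9, DKD+enarodustat 1, 2 or 4, with adjusted p up to 0.129). It also held for any 1 Sham array and for DKD 3, 7 or 9 in Hacl1 (up to 0.0670), for Sham 2, 3, 4 or 5 in Pex3 (up to 0.0715), for Sham 1, 4 or 6 in Acaa1b (up to 0.0600) and for Sham 3 in Pecr (0.0563). Adding slide row to the model ended the calls of Acaa1b (0.45, adjusted p = 0.0638), Hacl1 (0.87, adjusted p = 0.106) and Pipox (0.23, adjusted p = 0.114). The gene nearest to passing, Acaa1a, passed without DKD 5 or DKD 8 (adjusted p down to 0.0215) and under quantile normalization (0.36, adjusted p = 0.00643).

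Spread between mice was compared by the SD of each gene, as a description without a test. The SD of 30 of the 35 genes (85.7%) was larger in DKD than in Sham, where this held for 77.5% of all genes tested. It was larger in DKD+enarodustat than in Sham for 29 (82.9%), where this held for 71.2% of all genes. Acot3 had an SD of 1.09 in DKD against 0.37 in Sham, and Hacl1 one of 0.95 against 0.11. DKD replicate 4 was the DKD array nearest to the Sham levels for Acot3, Amacr, Hao2, Scp2 and Pex3, as noted after their values were seen, and the lowest DKD array for Cat. The glucose of that mouse is not given.

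Other peroxisomal genes, taken from lists by function, added 46 tested genes of 49. Agxt, which detoxifies glyoxylate in liver, was well above background on 2 DKD+enarodustat, 4 DKD and 0 Sham arrays. It met the minimum of 6 arrays through the alloxan groups alone, so no difference from Sham is read from it. Of the other 45 genes, 3 rose and 8 fell between DKD and Sham, where 5.47% of all genes tested rose and 6.13% fell. All 3 tested genes of ether lipid synthesis fell. This pathway makes plasmalogens, and its early steps lie in the peroxisome: Gnpat acylates dihydroxyacetone phosphate, Agps exchanges that acyl group for an alkyl group, and Far1 supplies the fatty alcohol. Agps lay between 3.15 and 4.47 in DKD kidneys (median 3.80) and between 4.74 and 5.12 in Sham kidneys (median 5.00), a fall of 1.14 ± 0.17 (adjusted p = 0.00015). Far1 lay between 2.71 and 3.38 in DKD kidneys (median 3.07) and between 3.55 and 3.90 in Sham kidneys (median 3.62), a difference of −0.55 ± 0.10 (adjusted p = 0.000948). Gnpat lay between 3.21 and 3.62 in DKD kidneys (median 3.42) and between 3.79 and 4.10 in Sham kidneys (median 3.92), a difference of −0.46 ± 0.08 (adjusted p = 0.000487). For all 3 genes every DKD array was below every Sham array, an arrangement found for 3.4% of all genes tested. The 4 probes of Far1 and the 3 of Gnpat agreed in sign. The fourth gene of the list, Far2, was too dim to be tested. The 3 tested genes passed without any 1 array.

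**Figure D4:**
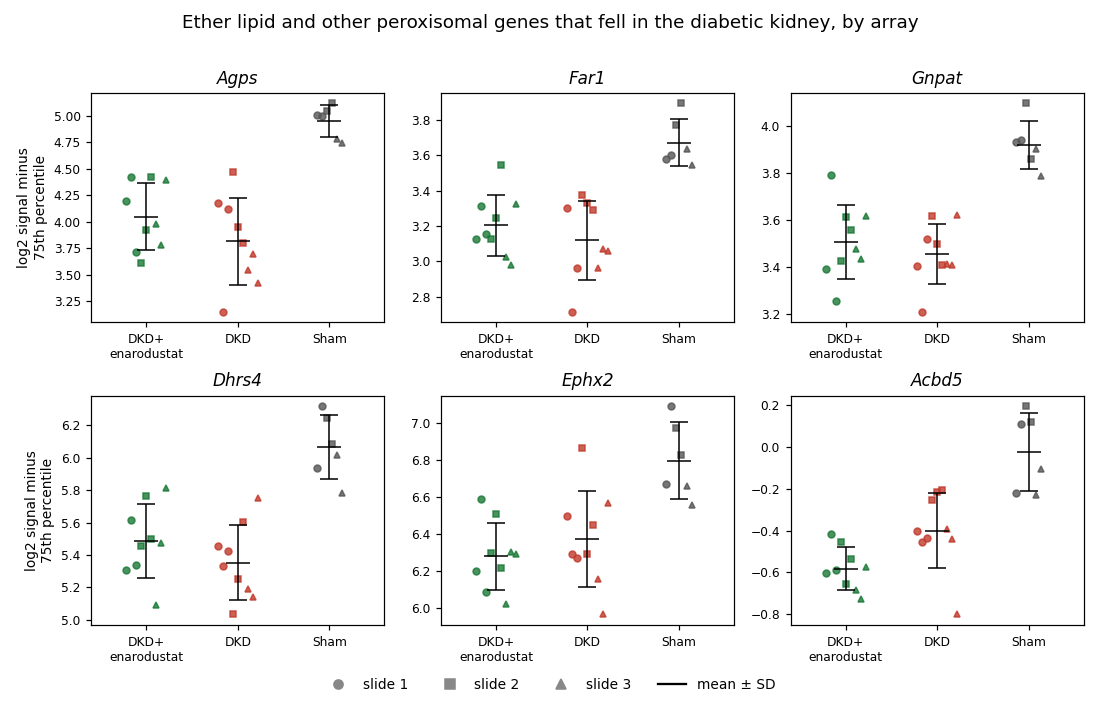
Level of the ether lipid synthesis genes Agps, Far1 and Gnpat (upper row) and of Dhrs4, Ephx2 and Acbd5 (lower row), as log2 signal relative to the array's 75th percentile, in each DKD+enarodustat (green, n = 9), DKD (red, n = 9) and Sham (grey, n = 6) kidney, with mean ± SD as bars and the slide as the symbol. For Agps, Far1, Gnpat and Dhrs4 all 9 DKD kidneys lie below all 6 Sham kidneys, while Ephx2 and Acbd5 overlap. Vertical axes do not start at 0 and differ between panels.

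Among other acyl-CoA and transport genes 2 rose and 2 fell of 15, where 11.6% of all genes tested passed. Acot5, a thioesterase of medium-chain acyl-CoAs and a close relative of Acot3, rose by 1.66 ± 0.51 (adjusted p = 0.0331) at its brightest probe, while its other probe gave 0.27. The acyl-CoA dehydrogenase Acad11 rose by 0.39 ± 0.10 (adjusted p = 0.0113). Nudt19, which hydrolyses CoA in mouse kidney peroxisomes, fell 2.15-fold (SE of the log2 difference 0.33, adjusted p = 0.0291), and Acbd5, which tethers peroxisomes to the endoplasmic reticulum, fell by 0.38 ± 0.09 (adjusted p = 0.00673). Acot5 missed the threshold after removal of Sham 1, 3, 4 or 6 or of DKD 2, 3, 7, 8 or 9 (adjusted p up to 0.0719), and with slide row in the model (1.32, adjusted p = 0.113). Nudt19 missed it after removal of Sham 1, 2, 3 or 4, DKD 2 or DKD 7 (up to 0.0898).

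Among redox and oxidase genes outside the 36, Dhrs4, a carbonyl and retinal reductase, fell by 0.71 ± 0.12 (adjusted p = 0.000395) and the epoxide hydrolase Ephx2 by 0.42 ± 0.12 (adjusted p = 0.0195). None of 5 pexophagy genes rose or fell by limma (0), and 0 had an unadjusted p under 0.05, where 24.8% of all genes tested did. Of 7 transcriptional regulators 1 fell, where 6.13% of all genes tested fell: Hnf4a, which maintains epithelial gene expression, by 0.26 ± 0.07 (adjusted p = 0.0204). The other 6 did not pass, with Ppara at −0.04 (adjusted p = 0.937), and the 7 differences ran from −0.73 to 0.23. Ppard and Ppargc1a, like Hnf4a, had an unadjusted p under 0.05 by limma, where 24.8% of all genes tested had one. Ephx2 and Hnf4a missed the threshold after removal of Sham 2 or Sham 3 (adjusted p up to 0.0664). Hnf4a also did not pass under quantile normalization (−0.22, adjusted p = 0.296).

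Markers of cell types were set beside these genes. Of 10 proximal tubule markers, 1 rose (the lactate transporter Slc5a12, 0.55) and 3 fell in DKD against Sham: the anion transporter Slc22a6 (−0.75), Slc7a13 (−0.82) and Slc13a3 (−0.38). The other 6 did not pass, where 11.6% of all genes tested passed (5.47% higher and 6.13% lower). The mean level of the 10 lay between 5.65 and 5.96 in DKD+enarodustat kidneys, 5.72 and 6.10 in DKD kidneys and 5.97 and 6.21 in Sham kidneys. Of 6 markers of collecting duct principal cells 5 rose, Aqp2 by 0.91. The part of these markers in the peroxisomal differences was not tested.

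The second comparison asked what enarodustat changed in the diabetic kidney. None of the 35 peroxisome genes rose or fell in DKD+enarodustat against DKD (0 and 0 by limma), where 0.716% of all genes tested passed (0.609% higher and 0.107% lower). At an unadjusted p under 0.05 there were 4 genes (11.4%, where 10.9% of all genes tested had one), 0 higher and 4 lower: Pex26 (−0.22, adjusted p = 0.258), Ddo (−0.25, adjusted p = 0.303), Acaa1a (−0.25, adjusted p = 0.321) and Pex6 (−0.22, adjusted p = 0.339), singled out after their values were seen. The median over the 35 was −0.03, beside 0.00 over all genes tested. It was −0.19, beside −0.04, with slide row in the model, and −0.08, beside −0.01, under quantile normalization. For 30 of the 35 genes the whole 95% interval lay within 0.5 on either side of 0 on the log2 scale, so a change beyond that size lies outside those intervals, while smaller ones remain possible. The 5 others were Acot3, Hacl1, Crot, Acaa1b and Amacr.

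The widest interval was that of Acot3, which lay between 0.04 and 2.75 in DKD+enarodustat kidneys (median 1.17) and between −0.06 and 3.37 in DKD kidneys (median 2.36). Its difference was −0.66 ± 0.43 (95% interval −1.55 to 0.23; adjusted p = 0.654), and the groups overlapped over nearly their whole range. Hacl1 lay between 2.04 and 3.24 in DKD+enarodustat kidneys (median 2.80) and between 1.85 and 4.77 in DKD kidneys (median 2.75), a difference of −0.37 (95% interval −0.97 to 0.22). Both medians were close, and the highest arrays were in DKD. Hao2 lay between 3.71 and 5.71 in DKD+enarodustat kidneys (median 5.22) and between 4.54 and 5.76 in DKD kidneys (median 4.98), a difference of 0.01 (95% interval −0.45 to 0.46).

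Genes that fell in the diabetic kidney also overlapped between the alloxan groups. Amacr lay between 5.94 and 6.73 in DKD+enarodustat kidneys (median 6.22) and between 5.60 and 6.92 in DKD kidneys (median 6.01), a difference of 0.21 (95% interval −0.10 to 0.51). Pex3, with medians of 0.85 in both groups, differed by 0.09 (95% interval −0.13 to 0.30). Cat lay between 3.52 and 4.04 in DKD+enarodustat kidneys (median 4.00) and between 3.80 and 4.26 in DKD kidneys (median 3.90), a difference of −0.07 (95% interval −0.23 to 0.10). For Cat the difference of the medians and the fitted difference of means had opposite signs, and 3 DKD+enarodustat arrays lay below every DKD array. Scp2 differed by −0.02 (95% interval −0.18 to 0.14) and Pecr by 0.04 (95% interval −0.17 to 0.24).

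Acaa1a stood nearest to a call that depends on the scaling. It lay between 5.81 and 6.24 in DKD+enarodustat kidneys (median 6.06) and between 5.84 and 6.58 in DKD kidneys (median 6.37), and all 9 DKD+enarodustat arrays were below the DKD mean. It fell, by 0.33 (adjusted p = 0.0324), under quantile normalization, by 0.31 (adjusted p = 0.0330) after normexp with quantile normalization, and by 0.32 (adjusted p = 0.0333) in the authors' deposited values. Its other probe gave −0.27. Its relative Acaa1b lay between 3.59 and 4.58 in DKD+enarodustat kidneys (median 4.29) and between 4.16 and 4.82 in DKD kidneys (median 4.38) and differed by −0.24 (95% interval −0.50 to 0.02). Pipox lay between 5.43 and 5.90 in DKD+enarodustat kidneys (median 5.64) and between 5.60 and 6.05 in DKD kidneys (median 5.80) and differed by −0.14 (95% interval −0.30 to 0.02).

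Acox2 lay between 3.84 and 4.62 in DKD+enarodustat kidneys (median 4.39) and differed from DKD by 0.11 (95% interval −0.13 to 0.35). Ehhadh lay between 4.44 and 4.77 there (median 4.63) and differed by 0.10 (95% interval −0.08 to 0.28). Pex5 lay between 1.30 and 1.68 (median 1.50) and differed by −0.06 (95% interval −0.20 to 0.08). For these 3 genes the DKD+enarodustat arrays lay mostly inside the DKD range. Of the 46 genes on the other lists 0 rose and 0 fell by limma (2 higher and 8 lower at an unadjusted p under 0.05, 21.7% of them, where 10.9% of all genes had one), with Agps at 0.23, Far1 at 0.09 and Gnpat at 0.05. Probes of Far1 differed in sign here, between −0.25 and 0.10. Bnip3l, a receptor for autophagy of mitochondria and peroxisomes, differed by 0.51 ± 0.14 (adjusted p = 0.0863) and was singled out after its values were seen. Bnip3l rose, by 0.50 (adjusted p = 0.00551), under quantile normalization. Of 5 markers of endothelial cells 3 rose in this comparison (Emcn 0.43, Egfl7 0.44 and Cdh5 0.43), where 0.609% of all genes tested rose. Their mean level was 1.86 to 2.17 in DKD+enarodustat, 1.52 to 1.72 in DKD and 1.50 to 1.78 in Sham kidneys. Their part in the values above was not tested.

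The third comparison set treated diabetic kidneys against Sham kidneys, and it shares its Sham arrays with the first and its treated arrays with the second. Of the 35 genes 1 rose, 4 fell and 30 did not pass, where 15.5% of all genes tested passed (8.74% higher and 6.75% lower). The median over the 35 was −0.02, as over all genes tested, and with slide row in the model these medians were −0.31 and −0.09. Hao2 rose by 0.98 ± 0.24 (adjusted p = 0.00816), with 8 of 9 DKD+enarodustat arrays above every Sham array and DKD+enarodustat replicate 6 within the Sham range. Amacr differed by −0.67 ± 0.16 (adjusted p = 0.00766) and Cat by −0.34 ± 0.09 (adjusted p = 0.0116). For Amacr and Cat all 9 DKD+enarodustat arrays were below all 6 Sham arrays, 2 of 35 genes, where 4.94% of all genes separated without overlap. Pecr lay between 6.49 and 7.20 in DKD+enarodustat kidneys (median 6.65) and differed by −0.38 ± 0.11 (adjusted p = 0.0243). Scp2 lay between 6.18 and 6.58 there (median 6.32) and differed by −0.33 ± 0.09 (adjusted p = 0.0119), and Pecr and Scp2 both overlapped with Sham.

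Several genes stood just short of the threshold against Sham. Acot3 differed by 1.37 ± 0.48 (adjusted p = 0.0560), with 6 of 9 DKD+enarodustat arrays above every Sham array, and it passed without DKD 4 or 9 or DKD+enarodustat 6, 7 or 9 (adjusted p down to 0.0297). Pex3, between 0.57 and 1.25 in DKD+enarodustat kidneys (median 0.85), differed by −0.31 (adjusted p = 0.0730), and Dao differed by −0.26 (adjusted p = 0.0885). Hacl1 differed by 0.68 (adjusted p = 0.157), Acaa1b by 0.26 (adjusted p = 0.227) and Pipox by 0.13 (adjusted p = 0.326). All 12 peroxins failed to pass, with differences between −0.42 (Pex19) and 0.09 (Pex11a). Acox2 (0.19), Ehhadh (0.00) and Pex5 (0.02) did not pass either. Probes of Acox3, Pex6 and Pex26 differed in sign in this comparison. Acox3 differed by −0.28 at its brightest probe, which did not pass, and by −0.66 and 0.31 at its others. In a limma fit over all probes above background these 2 had adjusted p of 0.00480 and 0.407.

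When slide row was added to the model, which the layout allows only through the DKD arrays, none of these 5 genes passed (0 by limma): Amacr differed by −0.71 (adjusted p = 0.130), Cat by −0.48 (0.0606), Hao2 by 0.88 (0.203), Pecr by −0.55 (0.0790) and Scp2 by −0.45 (0.0676). Over all 17736 genes tested, 889 passed in this comparison with slide row in the model and 2748 without it. All Sham arrays lay in row 1 and all DKD+enarodustat arrays in row 2, so row and group cannot be told apart between these groups alone. Cat also did not pass under quantile normalization (−0.27, adjusted p = 0.152), and Pecr did not without Sham 2, 3 or 5 (up to 0.0721).

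On the other lists, with Agxt left out, 0 genes rose and 8 fell of 45 by limma between DKD+enarodustat and Sham. Over all genes tested 8.74% rose and 6.75% fell. With Agxt counted, 4 higher and 17 lower had an unadjusted p under 0.05 (45.7%, where 29.7% of all genes tested had one). The 3 ether lipid genes fell again: Agps, between 3.61 and 4.42 in DKD+enarodustat kidneys (median 3.98), by 0.90 ± 0.17 (adjusted p = 0.000929), Gnpat by 0.41 ± 0.08 (adjusted p = 0.00113) and Far1 by 0.47 ± 0.10 (adjusted p = 0.00313). Acbd5 fell by 0.56 ± 0.09 (adjusted p = 0.000203), Dhrs4 by 0.58 ± 0.12 (adjusted p = 0.00191), Ephx2 by 0.52 ± 0.12 (adjusted p = 0.00424) and Hnf4a by 0.43 ± 0.07 (adjusted p = 0.000325). Usp30, a deubiquitinase that opposes removal of mitochondria and peroxisomes, fell by 0.27 ± 0.08 (adjusted p = 0.0180), and it did not pass without Sham 3 (adjusted p = 0.0642) or under quantile normalization (adjusted p = 0.0540). With slide row in the model Agps (−0.85, adjusted p = 0.0830), Far1 (−0.44, 0.127), Acbd5 (−0.44, 0.0797), Ephx2 (−0.60, 0.0755) and Usp30 (−0.27, 0.210) did not pass, while Gnpat, Dhrs4 and Hnf4a did. Of the 10 proximal tubule markers 0 rose and 4 fell here, Slc22a6 by 0.67. Of 6 principal cell markers 5 rose (Aqp2 by 0.93) and of 5 endothelial markers 3 rose (Cdh5 by 0.64). The part of these markers in the values above was not tested.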

How the data were processed

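Each deposited scanner file holds 1 array, with spot intensity values that were background-subtracted and detrended by Agilent Feature Extraction 12.1.1.1, per the file headers. Version 11.5.1.1 and limma stand in the submitters' processing notes. The authors also deposited a table of log2 values for 31409 probes. Normexp correction (offset 50) of the median signals with quantile normalization came within 0.05 of 753186 of 753816 of them, and the medians of its columns were 7.543 to 7.559; its centring and scale follow from that match.

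Here the processed signals were taken to log2 and each array's 75th percentile was subtracted. Control spots were removed, replicate spots of a probe were averaged and no value of the 36 genes carried an outlier mark (0 dropped). Accessions named 32994 of 56605 probes through RefSeq (GRCm38.p6). Each gene was read from its probe of highest mean, and tested where that probe was well above background on 6 or more of 24 arrays. Limma 3.58.1 in R 4.3.3 fitted group as the only term over all arrays, and p-values are two-sided. The script was tested on simulated data. Arrays give no counts, and their number limits the precision. Samples of a group were taken as separate mice.

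All 36 genes were accounted for by role. The lowest, median and highest arrays were given for those that passed in any comparison and for Cat, Acox2, Ehhadh and Pex5, and of the other lists up to 4 genes that passed were named per list and comparison, by absolute difference. Levels of Acaa1a, and Bnip3l and Ppara, were added after their values were seen. The 36 genes and the lists were chosen with earlier results of these data known, so their patterns are no independent support. The result of 1 gene on the other lists is not reported here. Alternatives covered background correction, normalization, the filter, the probe rule, slide, slide row, the replicate number, the samples in the fit and each array left out.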

Additional observations from a re-analysis of the deposited data

Results flagged for a closer look

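Each of the 35 genes was checked in each group for an array far from the others (a gap to its nearest neighbour above the 95% critical value of Dixon's test, where chance marks about 1 in 20 groups). Of 105 checks 5 (4.76%) met it, about the share that chance gives. Hao2 was lowest in DKD+enarodustat replicate 6, at 3.711, with the next array at 4.762. Pex16 was highest in DKD+enarodustat replicate 5, at 3.067, with the next at 2.514. Pex5 was highest in DKD replicate 3, at 1.892, with the next at 1.613. Scp2 and Crot were lowest in Sham replicate 6, Scp2 at 6.552 with the next at 6.700 and Crot at 3.910 with the next at 4.237. The cause of these values was not tested, and no call of Scp2 or Hao2 was lost without any of these arrays.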

How the results depend on the processing

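Between DKD and Sham, where 5 genes rose and 5 fell, leaving out 1 array gave 2 to 6 risers and 2 to 5 fallers. Risers numbered 2 without Sham 1, 4 or 6 and 3 without Sham 3 or DKD 3, 7 or 9. Fallers numbered 3 without Sham 2 or 5 and 2 without Sham 3. Other settings that moved these counts by over 1.5 times were slide row as a term (2 risers), only the 2 groups in the fit (3 risers) and the authors' deposited values (3 fallers), and each slide alone gave 0 and 0. Quantile normalization gave 5 and 4, with Acaa1a gained and Pipox and Cat lost. With the replicate number as a block 2 rose and 3 fell, and Acaa1b, Hacl1, Pipox, Pex3 and Scp2 lost their calls (adjusted p of 0.0740 to 0.0884). The numbers were not taken to pair the mice, which the labels do not settle. Deviations of same-numbered arrays correlated at a median of 0.097 (−0.358 to 0.282, 21 pairs), beside −0.024 for arrays of different number. Of 24 arrays, 3 correlated best with their own number. Deviations of arrays on the same slide correlated at a median of 0.189, and on different slides at −0.093. Between DKD+enarodustat and DKD, 0 rose and 0 fell in the main setting and without any 1 array (0 to 0), and 1 fell (Acaa1a) under quantile normalization, normexp with quantile normalization and the authors' deposited values. Between DKD+enarodustat and Sham, where 1 rose and 4 fell, leaving out 1 array gave 1 to 2 risers (2 without DKD 4 or 9 or DKD+enarodustat 6, 7 or 9) and 3 to 8 fallers (8 without DKD+enarodustat 5). Risers numbered 2 with the authors' values or with genes above background on all arrays, 3 with only the 2 groups, and 0 with slide row as a term or in slide 2 or 3 alone. Fallers numbered 0 with slide row as a term and in each slide alone. A slide alone leaves 8 arrays; the cause of the other changes was not tested. No difference of a gene that passed turned its sign in any setting. Over all genes tested, 2058, 127 and 2748 passed between DKD and Sham, DKD+enarodustat and DKD, and DKD+enarodustat and Sham. DKD+enarodustat against DKD gave 20 with slide row as a term, 66 with the replicate block, 47 with only the 2 groups, 83 with no filter, 71 without DKD+enarodustat 8, 82 without DKD+enarodustat 4 or DKD 7 and 84 without DKD+enarodustat 5 or 6, and DKD+enarodustat against Sham gave 889 with slide row as a term. The share of higher calls, 47.2%, 85.0% and 56.4%, moved by over 10 points among the other scalings in the second comparison, to 74.8% under quantile normalization, 72.1% after normexp with quantile normalization and 69.5% in the authors' values, and in the third to 44.9% with each array's median over genes in place of the 75th percentile. Each slide alone gave 0 to 15, 0 to 4 and 7 to 36 calls, with shares of higher calls between 33.3% and 100%. Signal over background limits what dim probes such as that of Abcd2 can show. Normexp on mean spot signals was not run, and normexp on median signals with the 75th percentile was added in its place after seeing the data.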
